A study of Mus musculus with 8 samples.

Results

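DNA replication genes were followed in AML12 cells, an established line of mouse hepatocytes from the liver of an animal with a human TGF-alpha transgene, after silencing of Casp8, which encodes caspase-8, a protease that starts apoptosis from death receptors. The 54 genes were taken by symbol from a list of origin and fork proteins, and all 54 of the 34945 named genes of the table carried them. The 4 control cultures (Scr, labelled wild type) received a scrambled siRNA and the 4 others (siCasp8, labelled Casp8 knockdown) received Casp8 siRNAs, each at 40 nM with the same lipid reagent, and RNA was taken 48 hours later. All 8 libraries hold poly-A RNA of the same line and carry no other treatment, so every comparison rests on a single line and a partial knockdown. The design text calls the cultures of a group biological replicates. The deposited values are per-gene read estimates scaled per library by the authors (kallisto and DESeq2, per the table's name), called normalized values here.

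Replication starts when the origin recognition complex, with Cdc6 and Cdt1, loads the ring of the 6 proteins Mcm2 to Mcm7 on DNA in G1, a step called licensing. In S phase this ring joins with Cdc45 and the 4 GINS proteins to form the helicase. The kinase Cdc7 with Dbf4 is among the factors needed for this step, and Mcm10 helps to activate the helicase. Polymerase alpha with primase then starts each strand, polymerases epsilon and delta extend it, the clamp Pcna is loaded by replication factor C, and RPA covers single strands. Adult hepatocytes in liver rarely divide, whereas AML12 cells proliferate in culture, and many of these genes are textbook targets of the E2F transcription factors.

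Promoter stretches are shown for 6 members, picked by hand, because the group moved together. They run from the large falls of Cdc45 and Mcm5 through Mcm6 and Pola1 to the members with positive changes. These are Orc3, not called, and Orc5, called higher. The 6 do not show how common the words are among the members, which is given below over whole promoters. RefSeq promoters (GRCm38.p6) run from 250 bases before to 50 after a start, and 45 of the 54 members matched one. The stretches end before the annotated gene, read 5′ to 3′ on the gene's strand, and have words of the E2F binding motif in capitals. Mcm5 lies at chr8:75109349-75109508 (plus strand), Mcm6 at chr1:128359706-128359865 (minus), Pola1 at chrX:93632156-93632315 (minus), Cdc45 at chr16:18811988-18812147 (minus), Orc3 at chr4:34614945-34615104 (minus) and Orc5 at chr5:22550430-22550588 (minus).
Mcm5: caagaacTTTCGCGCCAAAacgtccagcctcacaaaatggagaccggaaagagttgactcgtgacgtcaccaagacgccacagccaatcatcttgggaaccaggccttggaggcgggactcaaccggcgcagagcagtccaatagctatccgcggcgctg
Mcm6: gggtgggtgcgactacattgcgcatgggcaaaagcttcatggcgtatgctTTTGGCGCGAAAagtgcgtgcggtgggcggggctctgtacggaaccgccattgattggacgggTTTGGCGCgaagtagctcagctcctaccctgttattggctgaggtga
Pola1: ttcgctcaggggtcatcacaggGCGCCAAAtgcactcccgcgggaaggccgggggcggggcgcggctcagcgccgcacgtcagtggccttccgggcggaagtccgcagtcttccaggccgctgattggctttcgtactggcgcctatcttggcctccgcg
Cdc45: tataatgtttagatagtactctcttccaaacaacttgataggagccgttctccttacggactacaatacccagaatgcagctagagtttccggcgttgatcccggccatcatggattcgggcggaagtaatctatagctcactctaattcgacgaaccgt
Orc3: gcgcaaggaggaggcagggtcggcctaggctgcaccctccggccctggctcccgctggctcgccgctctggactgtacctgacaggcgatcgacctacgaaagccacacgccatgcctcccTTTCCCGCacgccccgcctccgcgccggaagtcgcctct
Orc5: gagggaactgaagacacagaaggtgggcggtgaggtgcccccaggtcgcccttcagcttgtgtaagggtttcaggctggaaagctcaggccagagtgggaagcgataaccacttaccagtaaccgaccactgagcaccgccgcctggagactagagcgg

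The E2F words searched were TTTCCCGC, TTTCGCGC, TTTGCCGC and TTTGGCGC on both strands, and overlapping matches each count. In the Mcm5 stretch the 2 words overlap, and in Mcm6 the first 2 of 3 overlap. Pola1 and Orc3 hold 1 each, and the stretches of Cdc45 and Orc5 hold none. Over whole promoters, 19 of 45 members (42.2%) held a word, against 2.26% of all 32851 promoters and 4.48% of the 10639 tested genes with a promoter. Genes called lower after silencing held one in 7.11% of 2307 cases.

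Casp8 was lower in every siCasp8 library. Its normalized values were 3936, 3995, 4134 and 3825 in Scr replicates 1 to 4 and 1374, 1431, 1627 and 1490 in siCasp8 replicates 1 to 4. The siCasp8 mean was 37.3% of the Scr mean (-1.43 on the log2 scale with SE 0.0525, adjusted p = 5.94e-09 by limma). An exact permutation test, two-sided over 70 arrangements, gave p = 0.0286, the smallest it can give. Estimated depth was 30.7 to 51.8 M reads in Scr and 50.5 to 57.1 M in siCasp8, so Scr replicate 4 was the only control at the depth of the treated libraries. Marker counts are read against all tested genes, of which 20.8% were called lower and 19.4% higher by limma. Of the hepatocyte markers 14 of 21 were tested, 8 higher and 1 lower. The serum albumin gene Alb was at 86.4 ± 10.7 (SD, n = 4) in the controls and 3626 ± 249 (SD, n = 4) after silencing, while Ahsg was at 0. Cholangiocyte markers, led by Spp1, summed to 118406 to 126964 in Scr and 131114 to 138612 in siCasp8, with 2 of 8 tested higher and 4 lower. Macrophage markers summed to 2832 to 3041 and 2203 to 2365, with 2 of 5 tested lower and Adgre1, Clec4f and C1qa at 0. Endothelial markers summed to 249 to 594 and 231 to 346, with Cdh5 and Lyve1 at 0. Stellate cell or fibroblast markers, led by Vim, summed to 35314 to 36753 and 33538 to 34976, with 1 of 3 tested higher and 1 lower. The part of these markers in the changes of the replication genes was not tested.

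Replication genes were lower as a group. By limma's test over 14154 genes, 47 of the 54 members were called lower (87.0%), against 20.8% of all tested genes, and 1 was called higher, against 19.4%. The median log2 fold change of the members was -0.48, against 0.003 over all tested genes, and 25 members (46.3%) fell by at least 0.5, against 5.82%. In 46 members (85.2%) all 4 siCasp8 values lay below all 4 Scr values, against 19.5% of all genes. All 54 members passed the minimum mean of 10, with means from 182 to 6765. Bulk RNA cannot tell fewer cells in S phase from less of these mRNAs per cell.

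**Figure D1:**
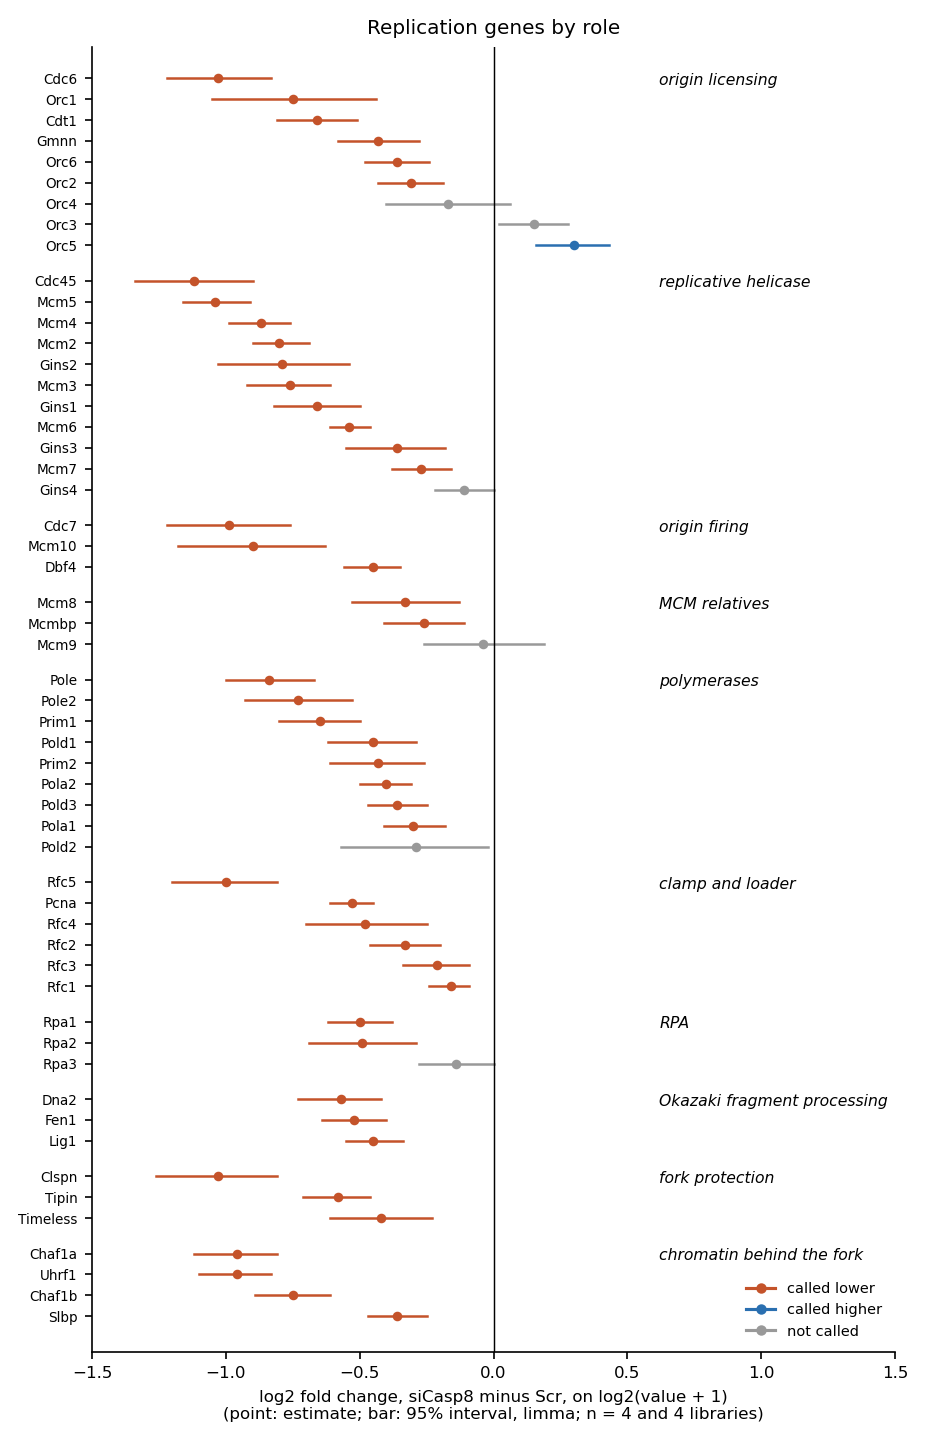
Log2 fold change (siCasp8 minus Scr, horizontal axis) of the 54 members, by role, with 95% limma intervals from 4 and 4 libraries. The 47 genes called lower lie left of 0, Orc5 is the only gene called higher, and 6 genes are not called.

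Depth did not match between the groups, and with estimated depth as a covariate 36 members were called lower, against 9.95% of all genes, and none higher, against 8.52%. The members' median was then -0.46. Against Scr replicate 4 alone, the control of matching depth, the median was -0.48 (all genes -0.00), and in 47 members all 4 siCasp8 values lay below that library, as in 34.0% of all genes. The call was lost with the covariate in 12 members: Orc1, Orc5, Gmnn, Gins3, Mcm8, Mcmbp, Prim2, Pold1, Rfc1, Rfc3, Rfc4 and Rpa2. The change itself moved by little in Rpa2 (-0.49 without and -0.47 with the covariate), Gins3 (-0.36 and -0.33), Mcm8 (-0.33 and -0.31), Prim2 (-0.43 and -0.39), Rfc3 (-0.21 and -0.23) and Rfc1 (-0.16 and -0.17). It shrank most in Orc1 (-0.75 and -0.46) and Mcmbp (-0.26 and -0.04). Rescaling to a common upper quartile moved the median of all genes by 0.10 and left 44 members lower and 2 higher, against 11.8% and 31.6% of all genes.

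**Figure D2:**
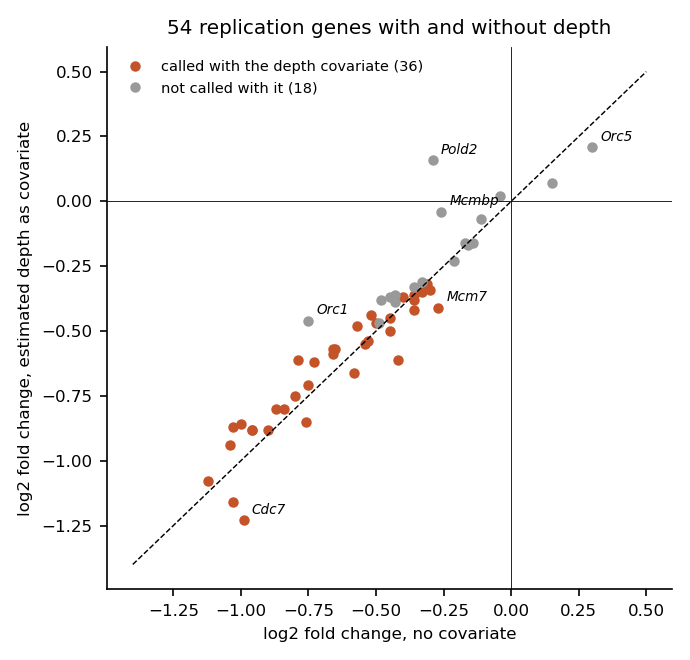
Log2 fold change of the 54 members without (horizontal) and with (vertical) estimated depth as a covariate; the dashed line marks equal values. Members called with the covariate and members not called with it lie on either side of the line. Those not called with it are the 12 that lost the call and the 6 not called without it. Cdc7 moves from -0.99 to -1.23, Mcmbp from -0.26 to -0.04, and the sign changes in Pold2, from -0.29 to 0.16, and Mcm9, from -0.04 to 0.02.

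The size of the fall differed by role. Each library's level was taken as the mean over a role's members of log2(value + 1), relative to the Scr mean. Over all 54 members the Scr replicates were at 0.08, -0.04, -0.02 and -0.02 and the siCasp8 replicates at -0.54, -0.56, -0.50 and -0.51. The treated libraries were thus all lower than any control and lay close together. The median log2 fold change was -0.90 for the 3 genes of origin firing, -0.86 for the 4 of chromatin behind the fork, -0.76 for the 11 of the helicase and -0.58 for the 3 of fork protection. It was -0.52 for Okazaki fragment processing, -0.49 for RPA, -0.43 for the 9 polymerase and primase genes, -0.40 for clamp and loader, -0.36 for licensing and -0.26 for the 3 relatives of the MCM proteins. These differences between roles are descriptions and were not tested.

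**Figure D3:**
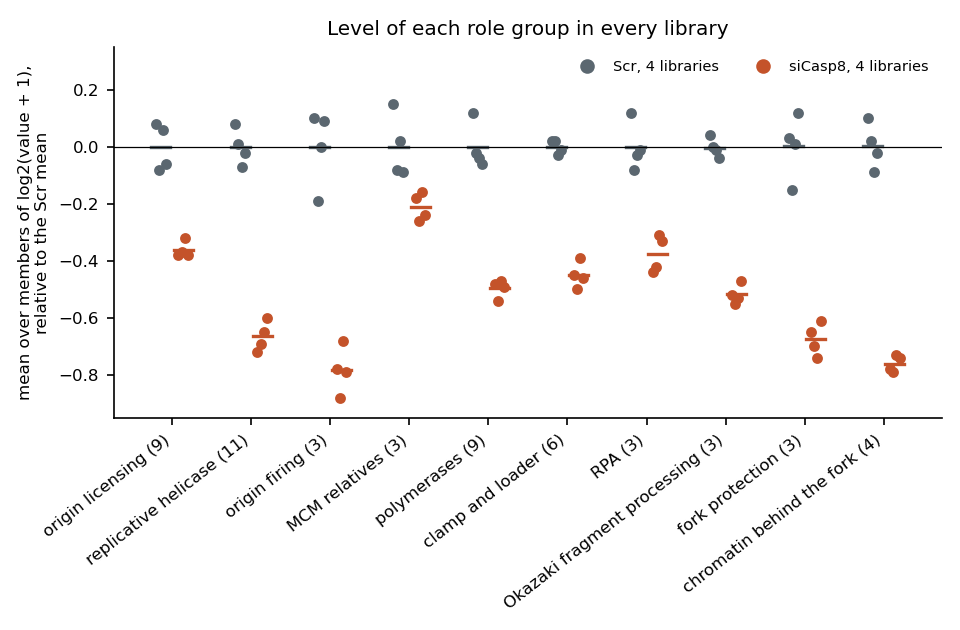
Mean level of each role group in every library (vertical axis, log2 scale relative to the Scr mean; number of genes in brackets); each point is a library and each bar a group mean. In all 10 role groups the 4 siCasp8 libraries lie below the 4 Scr libraries, closest for the MCM relatives.

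Licensing genes split. Of 9, Cdc6, Cdt1, Orc6, Gmnn, Orc2 and Orc1 fell, Orc5 rose, and Orc3 and Orc4 were not called. Cdc6, the ATPase that helps to load the MCM ring (chromosome 11, 98907801 to 98923940, GRCm38), had 714, 580, 625 and 539 in Scr and 303, 287, 287 and 322 in siCasp8. The lowest control was well above the highest treated library, for a log2 fold change of -1.03 (SE 0.0899, limma adjusted p = 2.57e-06). Its loading partner Cdt1 had 1799, 1691, 1448 and 1561 in Scr and 968, 1076, 1053 and 1004 in siCasp8, without overlap (-0.66, SE 0.0672, adjusted p = 8.78e-06). Gmnn, the inhibitor of Cdt1, went from 684 ± 48.3 to 507 ± 28.2 (-0.43, adjusted p = 3.62e-04). The log2 ratio of Cdt1 to Gmnn was 0.99 to 1.38 in Scr and 0.86 to 1.14 in siCasp8, so it overlapped, whereas that of Cdc6 to Gmnn, -0.24 to -0.02 against -0.88 to -0.60, did not.

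The 6 subunits of the origin recognition complex did not move together. Orc6 had 1253, 1137, 1292 and 1252 in Scr and 966, 950, 924 and 1000 in siCasp8 (log2 fold change -0.36, SE 0.0538, limma adjusted p = 1.92e-04). Its groups did not overlap, nor did those of Orc2 (-0.31, adjusted p = 8.35e-04). Orc1, the largest subunit, had the lowest level per kb of the 6 and the largest fall, with 304, 222, 202 and 188 in Scr and 124, 130, 139 and 143 in siCasp8. Scr replicate 1 stood above the other controls, and the change of -0.75 (SE 0.141, adjusted p = 0.00113) was -0.46 (adjusted p = 0.165) with the depth covariate. Orc5, an ATPase subunit (chromosome 5, 22486485 to 22550429), had 1329, 1248, 1533 and 1422 in Scr and 1692, 1729, 1768 and 1598 in siCasp8. All treated libraries were above all controls (0.30, SE 0.0630, adjusted p = 0.00235), and the change was 0.21 (adjusted p = 0.183) with the depth covariate.

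Orc3 had 1733, 1591, 1954 and 1816 in Scr and 1969, 2013, 2030 and 1854 in siCasp8 (log2 fold change 0.15, 95% interval 0.02 to 0.28, limma adjusted p = 0.0635). The groups overlapped only through siCasp8 replicate 4. The gene was called higher without that library (0.18, adjusted p = 0.0495) or without Scr replicate 3 (0.20, adjusted p = 0.0132). Orc4 had 2448, 2537, 3298 and 2585 in Scr and 2238, 2237, 2972 and 2227 in siCasp8. Replicate 3 was the highest of both groups, and the change of -0.17 (95% interval -0.40 to 0.06, adjusted p = 0.228) was -0.27 (adjusted p = 0.0296) without siCasp8 replicate 3. Per kb of the longest annotated coding transcript, Orc1 was at 76.0 ± 17.2 in Scr and the other 5 subunits at 624 to 842. In siCasp8 Orc1 was at 44.5 ± 2.91, and Orc3 and Orc5, at 855 ± 34.6 and 807 ± 34.5, were the highest of the 6. That rank of Orc3 and Orc5 rests on the length chosen. All annotated exons hold 6088 bases in Orc3 and 6166 in Orc5, against 2300 and 2103 in the longest coding transcript. For Orc6 they hold 2469 against 1466.

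**Figure D4:**
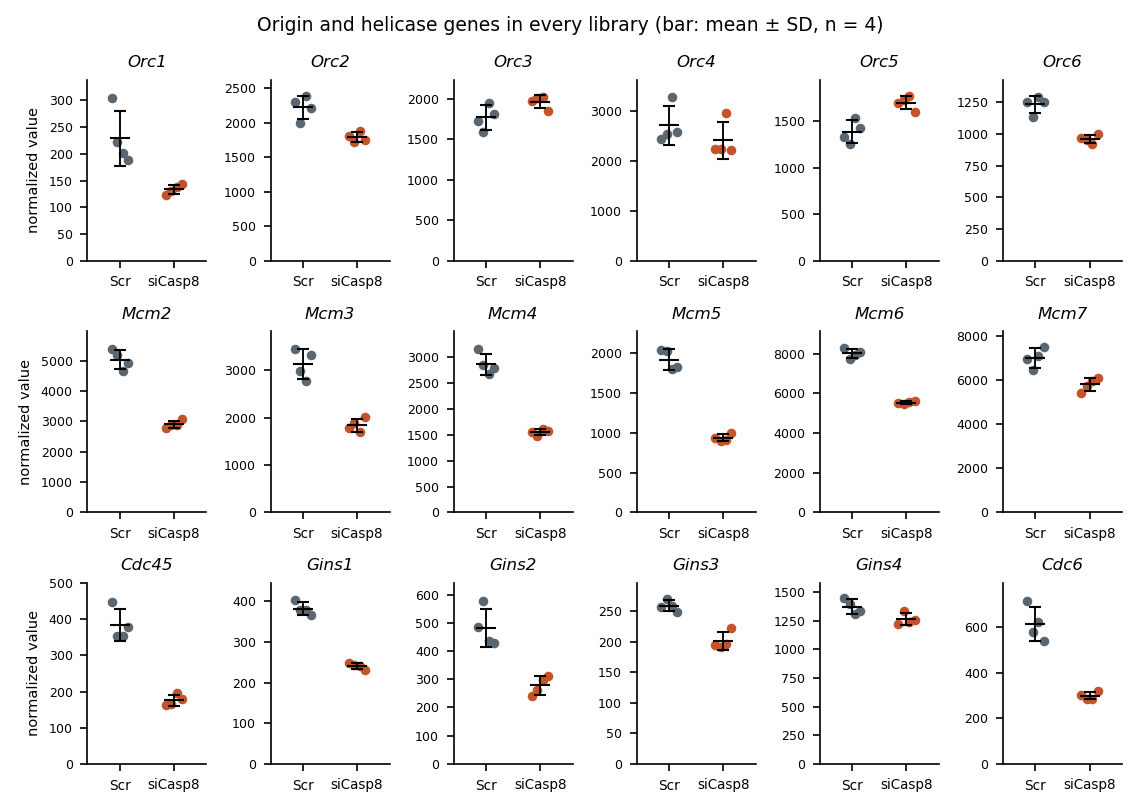
Normalized value (vertical axes, from 0) of the 6 ORC genes, 11 helicase genes and Cdc6 in each of the 4 Scr and 4 siCasp8 libraries, with mean ± SD. Orc5 is higher in all 4 siCasp8 libraries, Orc3, Orc4 and Gins4 overlap between the groups, and the others are lower without overlap.

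All 6 MCM ring genes fell, by 0.27 to 1.04 on the log2 scale, with a median of -0.78. Mcm5 (chromosome 8, 75109569 to 75128439) had 2033, 2021, 1796 and 1823 in Scr and 939, 898, 906 and 995 in siCasp8. The treated libraries held 48.7% of the control mean, with no overlap (-1.04, SE 0.0572, limma adjusted p = 7.29e-08, the smallest of the 54). Mcm4 (chromosome 16, 15623897 to 15637400) had 3155, 2844, 2669 and 2796 in Scr and 1561, 1483, 1616 and 1581 in siCasp8 (-0.87, SE 0.0534, adjusted p = 1.63e-07). Mcm2 had 5396, 5189, 4667 and 4927 in Scr and 2794, 2873, 2868 and 3070 in siCasp8 (-0.80, SE 0.0489, adjusted p = 1.70e-07). Both were lower without overlap, as were the other 3.

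Mcm6 (chromosome 1, 128331590 to 128359664), whose adjusted p equals that of Mcm2, had 8299, 7748, 7920 and 8068 in Scr and 5489, 5445, 5543 and 5610 in siCasp8 (log2 fold change -0.54, SE 0.0329). Mcm3 went from 3132 ± 312 to 1841 ± 135 (-0.76). Mcm7 fell least, from 6966, 6426, 7101 and 7481 to 5408, 5705, 5957 and 6101 (-0.27, SE 0.0507, adjusted p = 0.00104). The log2 ratio of Mcm5 to Mcm7, whose proteins sit in the same ring, was -2.04 to -1.67 in Scr and -2.72 to -2.53 in siCasp8. Its groups did not overlap, but the pair sets the largest fall of the ring over the smallest, so the ratio restates these changes. Per kb, Mcm7 was highest and Mcm5 lowest in both groups, at 2361 ± 147 and 567 ± 37.3 in Scr and 1956 ± 103 and 276 ± 13.0 in siCasp8. The order from high to low, Mcm7, Mcm6, Mcm2, Mcm3, Mcm4 and Mcm5, was also the same in both groups. This order, with Mcm7 at the top, rests on the length of the longest annotated coding transcript. All annotated exons hold 4426 bases in Mcm7 and 6956 in Mcm2, against 2962 and 3371 in that transcript. In Mcm7, 33.4% of the 31-base words of its transcripts also occur in other annotated genes, most in Gm5487, which has no entry among the deposited values.

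Of the genes whose proteins complete the helicase, Cdc45 had the largest fall among the 54 members by the test used throughout. With the depth covariate Cdc7 (-1.23) and Clspn (-1.16) fell by more than Cdc45 (-1.08), as did Cdc7 without Scr replicate 1 (-1.05, against -1.04 for Cdc45). Its values (chromosome 16, 18780447 to 18811987) were 449, 354, 354 and 380 in Scr and 162, 166, 197 and 179 in siCasp8, or 45.8% of the control mean (log2 fold change -1.12, SE 0.103, limma adjusted p = 3.75e-06). The GINS genes ranged widely: Gins2 went from 482 ± 68.7 to 278 ± 33.8 (-0.79), Gins1 from 381 ± 15.8 to 240 ± 6.65 (-0.66) and Gins3 from 259 ± 9.02 to 201 ± 13.8 (-0.36, adjusted p = 0.00494). Gins4 had 1452, 1395, 1307 and 1334 in Scr and 1226, 1337, 1244 and 1260 in siCasp8 and was not called (-0.11, 95% interval -0.22 to -0.00, adjusted p = 0.0923). Only siCasp8 replicate 2 reached the controls. The log2 ratio of Gins2 to Gins4 was -1.63 to -1.27 in Scr and -2.36 to -2.01 in siCasp8, but 66.2% of the 31-base words of Gins2 also lie in transcripts of Gse1 on the opposite strand. Gse1 itself was at 4899 in Scr and 4935 in siCasp8 on average (0.01, adjusted p = 0.918).

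All 3 origin firing genes fell. The kinase gene Cdc7 had 466, 446, 608 and 592 in Scr and 269, 241, 278 and 265 in siCasp8 (log2 fold change -0.99, SE 0.108, limma adjusted p = 1.51e-05). Dbf4, which encodes its activating subunit, had 1912, 1667, 1734 and 1800 in Scr and 1339, 1273, 1292 and 1284 in siCasp8 (-0.45, SE 0.0498, adjusted p = 1.66e-05). The log2 ratio of Cdc7 to Dbf4 did not overlap between groups, at -2.04 to -1.51 and -2.40 to -2.22. Mcm10, which helps to activate the helicase, had 850, 561, 577 and 691 in Scr and 336, 318, 414 and 350 in siCasp8 (-0.90, SE 0.127, adjusted p = 1.22e-04). Every treated value of these genes was below every control value.

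The MCM relatives changed least. Mcmbp, whose protein binds MCM subunits, had 5181, 4982, 5064 and 4158 in Scr and 4259, 4209, 3998 and 3697 in siCasp8 (log2 fold change -0.26, SE 0.0677, limma adjusted p = 0.00884). It was the only called member whose groups overlapped, through Scr replicate 4, and with the depth covariate its change was -0.04 (adjusted p = 0.792). Mcm8, with a role in recombination repair together with Mcm9, had 278, 273, 282 and 282 in Scr and 229, 190, 246 and 225 in siCasp8 (-0.33, SE 0.0932, adjusted p = 0.0131). Its call was lost after upper quartile rescaling (-0.23, adjusted p = 0.0685). Mcm9 had 962, 628, 735 and 720 in Scr and 715, 744, 737 and 736 in siCasp8 and was not called (-0.04, 95% interval -0.26 to 0.19, adjusted p = 0.809). Its single high value was Scr replicate 1, without which the change was 0.08 (adjusted p = 0.386).

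Polymerase and primase genes fell in 8 of 9 cases. Pole, the catalytic subunit of polymerase epsilon on the leading strand (chromosome 5, 110286306 to 110337474), had 2525, 1933, 2134 and 2152 in Scr and 1275, 1097, 1228 and 1275 in siCasp8 (log2 fold change -0.84, SE 0.0765, limma adjusted p = 3.62e-06). Pole2, its second subunit, went from 260 ± 18.7 to 156 ± 7.79 (-0.73). Prim1, the catalytic primase subunit, had 1255, 1094, 1162 and 1080 in Scr and 672, 740, 809 and 706 in siCasp8 (-0.65, SE 0.0697, adjusted p = 1.37e-05), and the large primase subunit gene Prim2 went from 972 ± 113 to 717 ± 43.3 (-0.43). These 4 genes were each lower in all treated libraries than in any control.

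Polymerase alpha genes moved less. Pola2, the accessory subunit, had 3210, 3190, 3011 and 3046 in Scr and 2296, 2284, 2320 and 2532 in siCasp8 (log2 fold change -0.40, SE 0.0444, limma adjusted p = 1.75e-05). Pola1, the catalytic subunit (chromosome X, 93304767 to 93632155), went from 2696 ± 84.7 to 2199 ± 158 (-0.30, adjusted p = 6.83e-04). The log2 ratio of Pole to Pola1 was -0.45 to -0.05 in Scr and -1.01 to -0.66 in siCasp8, without overlap. Of polymerase delta, which makes the lagging strand, the catalytic Pold1 went from 1434 ± 138 to 1045 ± 89.6 (-0.45) and Pold3 from 2435 ± 156 to 1895 ± 83.6 (-0.36).

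Pold2, another delta subunit, had 1147, 976, 877 and 738 in Scr and 881, 720, 799 and 632 in siCasp8, with overlap. It was not called (-0.29, 95% interval -0.57 to -0.02, limma adjusted p = 0.0862). The adjusted p was 0.0185 without Scr replicate 4 and 0.0486 without siCasp8 replicate 1. With the depth covariate the sign turned (0.16, adjusted p = 0.451).

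Clamp and loader genes all fell, to very different extents. Pcna, the sliding clamp (chromosome 2, 132249162 to 132253314), had 3821, 3873, 3983 and 3937 in Scr and 2672, 2742, 2810 and 2619 in siCasp8 (log2 fold change -0.53, SE 0.0367, limma adjusted p = 4.39e-07). The 2 groups were each tight and far apart. The pseudogene Pcna-ps2, which holds 23.3% of the 31-base words of Pcna, was also called lower, from 566 to 424 on average (-0.41, adjusted p = 2.56e-04). Rfc5, a small loader subunit (chromosome 5, 117378103 to 117389047), had 1498, 1561, 1218 and 1321 in Scr and 654, 615, 753 and 767 in siCasp8, or 49.8% of the control mean (SE of the log2 change 0.0910, adjusted p = 3.38e-06).

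The 4 other loader genes fell by less than Rfc5. Rfc2 had 1897, 1677, 1561 and 1826 in Scr and 1423, 1351, 1353 and 1399 in siCasp8 (log2 fold change -0.33, SE 0.0598, limma adjusted p = 8.42e-04). Rfc4 went from 369 ± 50.3 to 264 ± 21.8 (-0.48) and Rfc3 from 866 ± 44.9 to 748 ± 31.5 (-0.21). Rfc1, the large subunit, went from 4617 ± 115 to 4127 ± 76.1 (-0.16). After upper quartile rescaling Rfc1 was at -0.06 (adjusted p = 0.250) and Rfc3 at -0.11 (adjusted p = 0.175), and neither was called. Rfc5 and Rfc1 proteins belong to the same 5-part loader, and the log2 ratio of their mRNAs was -1.87 to -1.59 in Scr and -2.71 to -2.45 in siCasp8. Per kb, Rfc5 went from 501 ± 56.5 to 249 ± 26.6, while Rfc1 stayed the highest of the 5 at 972 ± 24.2 and 869 ± 16.0.

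RPA followed in part. Rpa1, the main DNA-binding subunit, had 2845, 2646, 2500 and 2632 in Scr and 1780, 1779, 1975 and 1995 in siCasp8 (log2 fold change -0.50, SE 0.0543, limma adjusted p = 1.59e-05). Rpa2 had 673, 544, 506 and 577 in Scr and 373, 394, 433 and 434 in siCasp8 (-0.49, SE 0.0921, adjusted p = 0.00112). In both genes the groups were apart. Rpa3, the smallest subunit, had 1027, 897, 1120 and 985 in Scr and 915, 904, 942 and 885 in siCasp8, with overlap through Scr replicate 2. It was not called (-0.14, 95% interval -0.28 to 0.00, adjusted p = 0.113), and without that library the change was -0.19 (adjusted p = 0.0221).

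Okazaki fragment genes fell by similar amounts. Fen1, the flap nuclease (chromosome 19, 10199132 to 10204169), had 2351, 2527, 2120 and 2230 in Scr and 1590, 1594, 1564 and 1668 in siCasp8 (log2 fold change -0.52, SE 0.0542, limma adjusted p = 1.06e-05). Lig1, the ligase that seals the fragments, had 2626, 2477, 2647 and 2656 in Scr and 1938, 1849, 1800 and 2050 in siCasp8 (-0.45, SE 0.0481, adjusted p = 1.40e-05). Dna2, a nuclease and helicase, had 541, 492, 539 and 476 in Scr and 340, 332, 363 and 340 in siCasp8 (-0.57, SE 0.0714, adjusted p = 4.70e-05). None of the 3 overlapped between groups. Fen1 shares 79.6% of its 31-base words with other annotated genes, mostly the antisense gene Gm10143, so its reads cannot be assigned with certainty. The deposited values hold no entry for Gm10143, and whether the authors' annotation included it is not given.

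Fork protection genes fell as well. Clspn, the adaptor that passes the checkpoint signal to the kinase Chk1, had 864, 642, 655 and 826 in Scr and 364, 344, 339 and 403 in siCasp8 (log2 fold change -1.03, SE 0.104, limma adjusted p = 8.05e-06). Tipin had 1161, 1164, 1294 and 1259 in Scr and 776, 835, 862 and 785 in siCasp8 (-0.58, SE 0.0580, adjusted p = 7.45e-06). Its partner Timeless had 1064, 983, 1213 and 1234 in Scr and 917, 811, 735 and 894 in siCasp8 (-0.42, SE 0.0872, adjusted p = 0.00210). All 3 were lower without overlap. The log2 ratio of Clspn to Timeless was -0.89 to -0.30 in Scr and -1.33 to -1.12 in siCasp8.

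Genes that rebuild chromatin behind the fork were among the larger falls. Uhrf1, which guides DNA methylation to new strands (chromosome 17, 56303321 to 56323486), had 3065, 2606, 2459 and 2644 in Scr and 1381, 1294, 1441 and 1388 in siCasp8 (log2 fold change -0.96, SE 0.0638, limma adjusted p = 2.95e-07). Chaf1a, the large subunit of the histone chaperone CAF-1, had 1540, 1406, 1218 and 1346 in Scr and 691, 663, 711 and 752 in siCasp8 (-0.96, SE 0.0715, adjusted p = 7.09e-07). Chaf1b, its partner, had 1170, 1326, 1095 and 1170 in Scr and 677, 718, 692 and 739 in siCasp8 (-0.75, SE 0.0638, adjusted p = 2.12e-06). In each the treated libraries were far below the controls. Slbp, which binds the stem loop of histone mRNAs, went from 2071 ± 85.7 to 1612 ± 85.5 (-0.36, adjusted p = 1.12e-04). Ubxn6, which overlaps Chaf1a on the opposite strand and holds 50.9% of its 31-base words, was at 2372 and 2537 on average (0.10, adjusted p = 0.180).

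Sequence shared with other genes limits 15 members, those with over 10% of their 31-base words in other annotated genes. They are Orc1, Orc2, Mcm7, Gins2, Mcm9, Pole2, Pcna, Rfc2, Rfc4, Rfc5, Rpa3, Fen1, Chaf1a, Uhrf1 and Slbp. The share was 19.3% in Rfc5, 24.2% in Uhrf1 and 27.9% in Orc2. Among the other 39 members 34 were called lower by limma's test, against 20.8% of all tested genes. The median log2 fold change of these 39 was -0.45. The sources used here do not say whether reads were counted by strand.

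Members with and without an E2F word in the promoter had similar changes. The 19 with a word ran from -1.04 (Mcm5) to 0.15 (Orc3) on the log2 scale, with a median of -0.45, and 18 were called lower by limma. The 26 without a word ran from -1.12 (Cdc45) to 0.30 (Orc5), with a median of -0.48, and 21 were called lower. Over all tested genes, 20.8% were called lower. Mcm5 and Orc3, whose words are printed above, are the ends of the first set. The difference between the sets was not tested. The cell cycle homology words TTTGAA and TTCGAA, on either strand, were in 9 of the 45 members and 19.2% of all promoters. The word CCAAT, on either strand, was in 27 of the 45 members and 37.4% of promoters (43.5% of tested genes). In the Mcm7 promoter a CCAAT match shared bases with an E2F match. The median was -0.45 with and -0.48 without a cell cycle homology word, and -0.49 with and -0.47 without CCAAT. A matching word describes these letters and is not a bound site, and a promoter without these exact words can still hold a bound site. The part of E2F in these changes was not tested. Members without an entry were Gmnn, Mcm4, Gins1, Gins2, Gins4, Prim2, Pole, Rfc2 and Tipin.

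**Figure D5:**
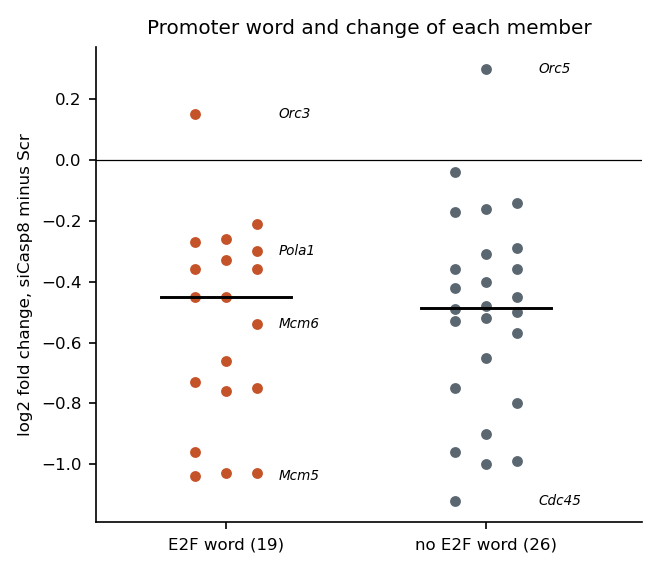
Log2 fold change of the 45 members with a RefSeq promoter (vertical axis), split by whether the promoter holds an E2F word; bars mark medians of -0.45 (19 genes) and -0.48 (26 genes). The 2 sets of points cover nearly the same range.

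Other genes of the pathway were counted from 4 lists, to be read against the 20.8% of all tested genes called lower and 19.4% called higher. Of 39 other replication factors, 27 were called lower and 3 higher by limma, with a median log2 fold change of -0.26 (17 lower and 6 higher after upper quartile rescaling, against 11.8% and 31.6% of all genes). Wdhd1, which links the helicase to polymerase alpha, went from 1301 ± 78.6 to 654 ± 58.7 (-0.99), and the chromatin remodeller gene Hells from 5698 ± 512 to 3208 ± 150 (-0.83). Pold4, the smallest delta subunit, rose from 568 ± 41.4 to 830 ± 41.6 (0.55), the opposite direction from Pold1 and Pold3. Of 14 deoxynucleotide synthesis genes, 10 were lower and 1 higher, with a median of -0.40. Rrm2, the ribonucleotide reductase subunit of S phase, went from 1901 ± 179 to 1018 ± 60.3 (-0.90). Samhd1, which breaks down deoxynucleotides, was the gene called higher (0.19), with overlapping groups, and with the depth covariate it was at 0.03 (adjusted p = 0.887).

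Among 19 E2F, pocket protein and S-phase cyclin genes, 14 were lower and 1 higher, with a median of -0.46. Ccne2, a cyclin of S-phase entry, fell to 42.5% of the control mean (log2 fold change -1.24), Ccna2 from 2529 ± 244 to 1132 ± 37.2 (-1.15), and the pocket protein gene Rbl2 rose from 4171 ± 57.4 to 4720 ± 137 (0.18, adjusted p = 0.0839 with the depth covariate). All 22 genes of mitotic kinases and the kinetochore were lower by limma, with a median of -1.06 and a range of -1.54 to -0.71. They include the kinetochore genes Spc24 (-1.54) and Nuf2 (-1.29) and the spindle checkpoint gene Mad2l1 (-1.03). Of the 54 replication members, 17 fell by at least as much as the mitotic gene that fell least. The difference between these lists was not tested.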

How the data were processed

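Poly-A RNA of 8 AML12 cultures (4 Scr, 4 siCasp8) was sequenced. The tools listed by the submitters' processing notes, without roles, are kallisto 0.44.0, bcl2fastq 2.19, DESeq2 and sleuth, and the builds are GRCm38 and GRCh38. The authors deposited a table of normalized signal per gene symbol, read estimates scaled by DESeq2 per its name; the annotation is not given in the sources used here. Library totals, 44.1 to 45.6 M, do not show depth, which was derived from the most common low value, taken as 1 read. Between 63.0% and 75.0% of low values lay within 0.1 read of whole reads, so no count model was used. A line without a symbol held 0.0481% to 0.0631% of each total and was left out.

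In R 4.3.3, limma 3.58.1 (moderated test with trend, two-sided) compared siCasp8 with Scr on log2(value + 1) over the 14154 genes with a mean of at least 10, with Benjamini-Hochberg adjustment over all of them and calls at an adjusted p under 0.05. Changes of low genes are understated on this scale. Means are given ± SD, with n = 4 libraries per group. Gene positions, transcript lengths and shared 31-base words came from GENCODE (GRCm38) and promoters from RefSeq.

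The members and lists were chosen with earlier results of these data known. No rule chose the gene pairs whose ratios are given. Each sets a larger fall over a smaller one, so a gap between the groups restates those changes and is not a test. The ratios of Rpa1 to Rpa3 and of Pole to Pold2 were also taken and overlapped between the groups. Values by library are given for the 3 called members of lowest adjusted p in each of the 10 role groups, and for members not called or called higher (Cdc45, Mcm7 and Orc1 were added after their values were seen); in other lists, the largest fall, the largest rise and the 2 smallest adjusted p. A gene that this rule names is not reported here. Alternatives changed the pseudocount, filter, scaling (upper quartile, quantile, TMM), depth, replicate block, prior variance or left out a library.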

Additional observations from a re-analysis of the deposited data

Results flagged for a closer look

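In 5 of 110 groups of 4 libraries (the 54 members and Casp8, each in both groups) an end library lay far from its neighbours for the range of its group; chance gives about 1 in 20 such groups. Orc4 was flagged in both groups through replicate 3, at 3298 in Scr (next 2585) and 2972 in siCasp8 (next 2238). In siCasp8 replicate 4, Gins3 was at 222 (next 196) and Pola2 at 2532 (next 2320). Lig1 was at 2477 in Scr replicate 2 (next 2626).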

How the results depend on the processing

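The count of 47 members called lower ranged from 36 (depth covariate) to 49 (replicate block) over the alternatives, and Casp8 was called lower in all of them. After upper quartile rescaling 2 members were higher, the members' median was -0.38, and 1665 of all genes were lower and 4471 higher, against 2950 and 2739. With the depth covariate no member was higher (0), and 1409 of all genes were lower and 1206 higher. Leaving out a library gave 1 to 2 members higher, with 2 without Scr replicate 3 or siCasp8 replicate 4. Mcm9 turned to 0.06 after upper quartile rescaling, 0.02 with the depth covariate and 0.08 without Scr replicate 1 (-0.12 to 0.08 over the left-out libraries), and Pold2 to 0.16 with the depth covariate; the cause was not tested. Over the members and alternatives, 944 values kept direction and side of the threshold, 15 lost the call, 9 gained it and 4 turned. Depth and group go together apart from Scr replicate 4, so they cannot be fully told apart. The comparison with that library alone was chosen after seeing the data.

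The replicate number as a block gave 49 members lower (Orc4, adjusted p = 0.00470, and Pold2, adjusted p = 0.00531, were added), 3152 of all genes lower and 2868 higher. Same-numbered libraries deviated together with correlations across genes of 0.078, 0.044, 0.169 and 0.055, each the highest for its libraries, a hint from the data only, and they were not treated as pairs.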
